A study of Rattus norvegicus with 12 samples.

Results

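Bone morphogenetic protein (BMP) signalling was examined in the bladder through 8 genes. They were the ligands Bmp2, Bmp4, Bmp5 and Bmp7, the secreted antagonists Grem1 (gremlin 1) and Chrdl1 (chordin-like 1), and the target genes Id1 and Id3. The genes were taken by name from a table of 40154 genes, and all 8 had enough counts to be among the 17687 genes tested. Whole bladder RNA came from female Wistar rats, an outbred strain, aged 10 to 12 weeks per the labels. The 4 groups were uninjured controls and rats sampled 7, 14 or 28 days after a complete scalpel cut of the cord at thoracic segment 10 (the design text gives T9-T10), with the dura left intact. Each group had 3 libraries (n = 3 throughout). No label mentions a sham operation, and none says that each library is a separate animal, so p-values measure the spread between these libraries. Cord transection removes the brain's control of voiding and leaves what is called a neurogenic bladder, and the comparisons asked how BMP transcripts differed from control at each day and between days.

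BMPs are secreted dimers that bind paired type I and type II serine/threonine kinase receptors, which phosphorylate SMAD proteins that enter the nucleus with SMAD4. Antagonists such as gremlin and the chordin family bind the ligands outside the cell and keep them from their receptors, and the Id genes are classical direct targets whose products block basic helix-loop-helix factors. In the bladder, Bmp4 made by the stroma is known as a signal to the urothelium.

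Grem1 rose at every day after injury, by more than any other gene of the 8, and was highest at day 7. Id1 was lower than control at day 7 only among the 3 comparisons with control, and Bmp4 was lower at day 14 only. None of the 4 ligands was called higher than control at any day. Chrdl1, Id3 and Bmp2 were called in none of the 6 comparisons.

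The promoters of the 3 genes called against control are shown as the 250 bases before the start of the gene, 5′ to 3′ on the gene's strand, from the RefSeq table of the rat assembly GRCr8. Of the 8 genes, 6 had a promoter in that table, and Bmp2 and Bmp7 did not. Capitals mark matches to GGCGCC, a palindromic GC-rich element bound by BMP-type SMADs, or to CAGAC, a SMAD box core, searched on both strands. The 2 motifs do not overlap in these sequences.
Grem1, GRCr8 chr3:120978320-120978569, minus strand: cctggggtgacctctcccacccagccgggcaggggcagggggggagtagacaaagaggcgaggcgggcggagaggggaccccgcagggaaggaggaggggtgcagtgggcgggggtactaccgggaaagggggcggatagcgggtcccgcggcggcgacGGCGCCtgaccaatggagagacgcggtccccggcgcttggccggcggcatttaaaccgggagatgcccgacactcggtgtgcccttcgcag
Bmp4, GRCr8 chr15:22101934-22102183, minus strand: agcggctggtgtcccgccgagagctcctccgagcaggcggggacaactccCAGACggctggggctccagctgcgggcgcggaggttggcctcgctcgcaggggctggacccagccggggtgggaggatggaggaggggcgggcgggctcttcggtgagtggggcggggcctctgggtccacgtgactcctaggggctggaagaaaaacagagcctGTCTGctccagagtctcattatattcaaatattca
Id1, GRCr8 chr3:161671314-161671563, plus strand: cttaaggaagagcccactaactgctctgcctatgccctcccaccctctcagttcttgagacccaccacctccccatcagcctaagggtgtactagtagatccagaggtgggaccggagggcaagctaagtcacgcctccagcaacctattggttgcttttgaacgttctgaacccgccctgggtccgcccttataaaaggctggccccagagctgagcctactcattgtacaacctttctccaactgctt
The Grem1 promoter held 1 GGCGCC, beginning 91 bases before the start, and was 72.0% G and C. The Bmp4 promoter held 2 CAGAC matches, beginning 200 and 35 bases before the start, the nearer one on the opposite strand. The Id1 promoter held neither motif within these 250 bases, nor did those of Bmp5, Chrdl1 and Id3. Bases further upstream were not searched, so sites there are not excluded. Among 33465 promoters of this length in the table, 8.7% held GGCGCC and 42.9% held CAGAC. A match is a description of letters only. Gene positions below are those of the authors' table on rn6 and were not converted between assemblies.

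Levels between genes were compared per length as TPM (a transcript's share of a library, corrected for gene length) in the authors' table, and levels between groups as CPM (counts per unit of library size) after scaling of the libraries. In control bladders Id1 had the highest level, 172 ± 13.5 TPM (mean ± SD), followed by Id3 at 82.0 ± 19.7 TPM. The ligands came next, Bmp7 at 27.9 ± 1.23, Bmp4 at 21.3 ± 0.732 and Bmp2 at 19.8 ± 1.01 TPM. Chrdl1 stood at 16.5 ± 5.93, Bmp5 at 10.0 ± 0.796 and Grem1 last at 0.822 ± 0.169 TPM. The ranges of Bmp4 and Bmp2, of Bmp2 and Chrdl1 and of Chrdl1 and Bmp5 touched or overlapped, so those neighbours in the order did not differ beyond their spread. At day 7 Grem1 had moved in TPM from the last place to the first, at 132 ± 48.6 TPM, overlapping Id1 at 107 ± 4.80. TPM divides by the whole gene length, and the order between genes depends on that choice. At day 7, 90.6% of the reads of Id1 lay in a model of 907 of its 1877 bases. Of the control reads of Bmp4, 96.7% lay in a model of 1535 of 2904 bases. A shorter length would raise the levels of both beside Grem1 and Bmp7. Id3 followed at 91.0 ± 3.21, then Bmp4 at 22.3 ± 1.09, Bmp7 at 18.4 ± 2.57, Bmp2 at 16.1 ± 0.888, Chrdl1 at 11.3 ± 2.73 and Bmp5 at 7.77 ± 1.07 TPM. Bmp7 overlapped Bmp2 in that order, as Chrdl1 did Bmp5. At days 14 and 28 Id1 was again the highest, at 208 ± 17.5 and 168 ± 31.3 TPM, and Id3 the second, at 89.1 ± 6.74 and 77.0 ± 3.80 TPM. Grem1 came after Id3 in mean level at both days, at 47.4 ± 29.1 and 39.1 ± 20.6 TPM. Below Id3, the ranges of neighbours overlapped at day 14 except that Bmp4 lay above Bmp5, and at day 28 all neighbours overlapped except Bmp4 and Bmp2.

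**Figure D1:**
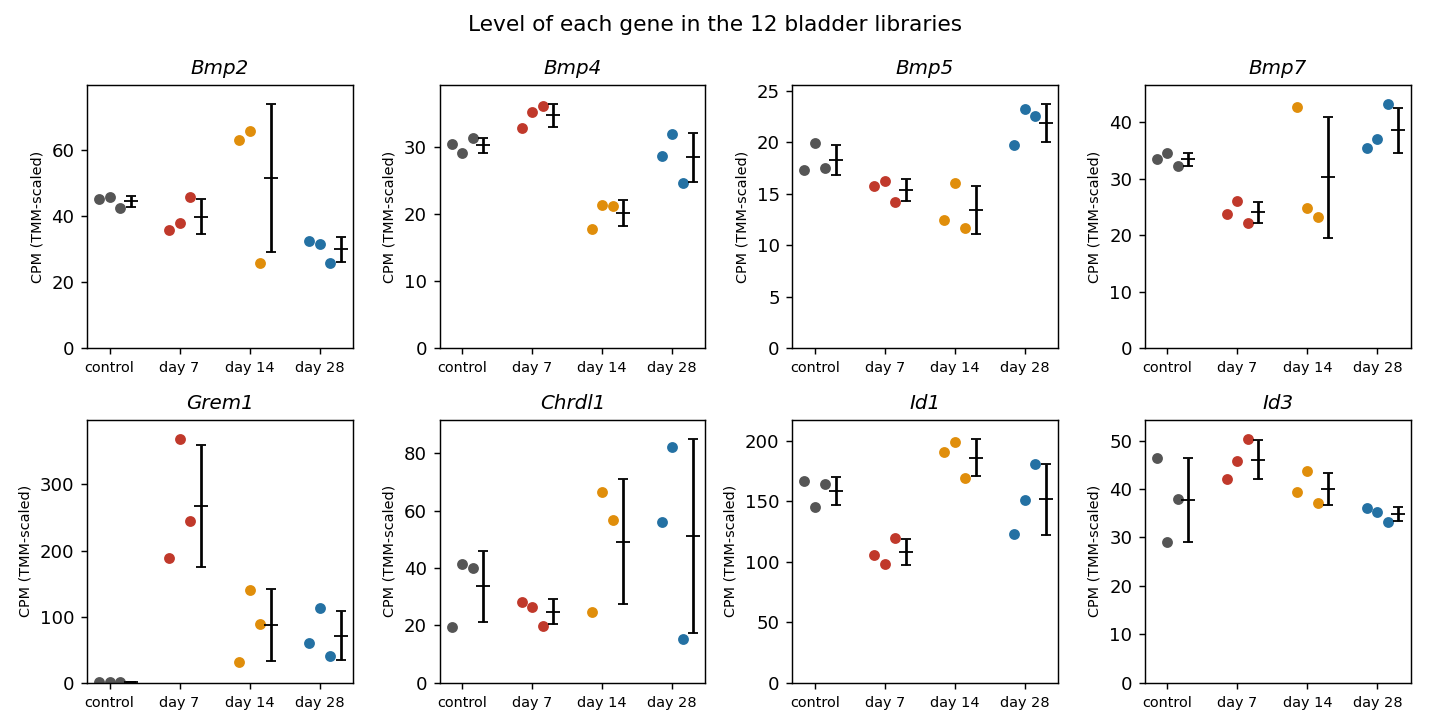
Level of each of the 8 genes in TMM-scaled CPM (vertical axes from 0, with a scale of its own for each gene) in the 3 libraries of each group (points), with mean ± SD beside them (bar). Grem1 is near 0 in controls and between 189 and 368 CPM at day 7, while the ligands stay within a narrow range by comparison.

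Grem1 (chromosome 3, 105203309 to 105214989, minus strand) encodes a cystine-knot protein that binds mainly BMP2 and BMP4 and also BMP7. It was read in control libraries at 1.18, 1.57 and 1.86 CPM, 129 counts in total. At day 7 the libraries held 189, 368 and 245 CPM, at day 14 they held 31.0, 140.0 and 89.7 CPM, and at day 28 they held 60.6, 112 and 41.0 CPM. Every injured library lay above every control library, and every day-7 library lay above every library of days 14 and 28, which overlapped each other. Against control the level was 174-fold higher at day 7, a log2 fold change of 7.44 ± 0.66 (± SE) with an adjusted p of 7.95e-05 by edgeR's quasi-likelihood test with Benjamini-Hochberg adjustment, the test used below. It was 56.5-fold higher at day 14 (5.82 ± 0.62, adjusted p = 0.00443) and 46.4-fold higher at day 28 (5.54 ± 0.61, adjusted p = 0.000216). The 95% intervals of these log2 values ran from 6.003 to 8.880, from 4.46 to 7.18 and from 4.19 to 6.88. In bulk tissue a change in the number of cells that make a transcript and a change in its amount per cell cannot be told apart.

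The later levels of Grem1 were also set against day 7. Day 14 was lower by 1.62 ± 0.49 on the log2 scale (log2 fold change −1.62, adjusted p = 0.0375), and day 28 by 1.91 ± 0.49 (log2 fold change −1.91, adjusted p = 0.0202). The call at day 14 against day 7 was lost without day-7 replicate 2 or 3, without day-14 replicate 1 or 3, or in a model of those 2 groups alone, with adjusted p over all alternatives from 0.0070 to 0.135. That at day 28 against day 7 was lost without day-7 replicate 2 or day-28 replicate 1 or 3 (0.00503 to 0.0753). Between days 14 and 28 the difference was −0.28 ± 0.48 with an interval from −1.33 to 0.76. All 3 calls against control held in each of 12 alternatives, including any 1 library of the 2 groups compared left out.

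Marker transcripts of several cell types also differed from control after injury. The summed level of 6 fibroblast markers (Pdgfra, Dcn, Lum, Col1a1, Dpt and Pi16) was 11516 to 15487 CPM in controls and 19160 to 23819 at day 7, then 5446 to 8329 at day 14 and 4593 to 9374 at day 28. Col1a1 made up most of that sum, with group means of 10273, 19222, 4707 and 4657 CPM in this order. At day 7, 1 of the 6 was called higher, at day 14 1 was called lower, and at day 28 2 were called lower and 1, Pi16, higher. The markers did not move alike. Pi16, the marker called higher at day 7, had means of 96.5 CPM in controls and 244, 248 and 234 at days 7, 14 and 28. Pdgfra had 207 in controls and 257, 137 and 208. Dcn had 2266 in controls and 1213, 1452 and 1479, with every day-7 library below controls though not called (adjusted p = 0.0582). Lum had 548 in controls and 517, 268 and 279, and Dpt had 397 in controls and 374, 323 and 276. Col1a1 was not called at day 7 (adjusted p = 0.0509). Of 4 cell cycle markers, 4 were called higher at day 7, with sums of 310 to 438 CPM against 16.5 to 39.2 in controls, and their sums were 20.1 to 29.1 CPM at day 14 and 46.3 to 143 at day 28, where 3 were called higher. The 6 endothelial markers were all called higher at day 7 (437 to 513 against 148 to 172 CPM in controls), and 4 of them at day 28 (229 to 355 CPM). The 5 macrophage markers summed to 223 to 257 CPM in controls. They were all called higher at day 7 (624 to 796 CPM), 2 of them at day 14 (278 to 443) and all 5 at day 28 (620 to 881). None of these 21 markers was at 0 in any library. What the cells that make these markers contribute to the level of Grem1 was not tested.

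Chrdl1 (chromosome X, 114554359 to 114658975, minus strand) encodes a chordin-type antagonist. Its levels were 19.4, 41.5 and 40.1 CPM in controls, 28.2, 26.5 and 19.8 at day 7, 24.6, 66.3 and 56.6 at day 14 and 55.9, 82.2 and 15.3 at day 28. All groups overlapped one another, and the spread between libraries was as wide as any difference. Against control the log2 fold changes were −0.44 ± 0.52, 0.55 ± 0.52 and 0.60 ± 0.52 at days 7, 14 and 28. Their intervals, −1.58 to 0.71, −0.59 to 1.69 and −0.54 to 1.74, each include a change of more than 2-fold. A difference of Chrdl1 from control was not detectable with this spread. Against day 7 the values were 0.99 ± 0.52 at day 14 and 1.04 ± 0.53 at day 28 (adjusted p = 0.214 and 0.195), and without day-28 replicate 3 the latter was called (1.48, adjusted p = 0.0384).

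The 4 ligands showed smaller differences than Grem1. Bmp4 (chromosome 15, 20776060 to 20791013, minus strand) stood at 30.4, 29.1 and 31.3 CPM in controls, 32.9, 35.1 and 36.1 at day 7, 17.8, 21.4 and 21.1 at day 14 and 28.7, 32.0 and 24.7 at day 28. Day 14 lay below all the other groups, and day 7 lay just above controls. The fall at day 14 was −0.59 ± 0.12 against control (adjusted p = 0.0293) and −0.79 ± 0.12 against day 7 (adjusted p = 0.00121). At day 28 Bmp4 was higher than at day 14 by 0.50 ± 0.12 (adjusted p = 0.0351) and differed from control by −0.09 ± 0.12 with an interval from −0.34 to 0.16. The call at day 14 against control was lost without any 1 control library or without day-14 replicate 1 or 3 (adjusted p from 0.000692 to 0.111 over the alternatives). The rise from day 14 to day 28 was lost in 6 of 12 alternatives, namely the model of the 2 groups alone and without any 1 day-14 library or day-28 replicate 1 or 2 (0.00496 to 0.167). The fall between days 7 and 14 held in all 12. The fibroblast sum given for Grem1, mostly Col1a1, was above controls at day 7 (19160 to 23819 CPM). It was below controls at day 14 (5446 to 8329 CPM) and at day 28 (4593 to 9374 CPM). Its single markers did not move alike, as given there. The share of these markers in the level of Bmp4 was not tested. A non-coding gene on the opposite strand overlaps Bmp4, with 69 counts over the 12 libraries against 9751 for Bmp4.

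Bmp5 (chromosome 8, 82669466 to 82950273, plus strand), a ligand close to BMP7 in sequence, was lowest at day 14 and highest at day 28. Controls held 17.3, 19.9 and 17.5 CPM, day 7 held 15.8, 16.2 and 14.2, day 14 held 12.5, 16.0 and 11.7, and day 28 held 19.7, 23.2 and 22.5. Days 7 and 14 lay below all controls and day 28 overlapped them. None of these was called against control, at −0.25 ± 0.14, −0.45 ± 0.14 and 0.26 ± 0.14, with adjusted p of 0.207, 0.113 and 0.216. Without day-14 replicate 2 the value at day 14 was called, with an adjusted p of 0.0469. Day 28 was higher than day 14 by 0.70 ± 0.14 (adjusted p = 0.0186) and higher than day 7 by 0.51 ± 0.14 (adjusted p = 0.0247). The first call was lost in the model of the 2 groups alone and without day-14 replicate 1 or day-28 replicate 2 or 3 (0.000264 to 0.112), the second without day-7 replicate 2 or 3 or day-28 replicate 2 or 3 (0.00590 to 0.0847).

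Bmp7 (chromosome 3, 170879972 to 170955820, minus strand), known from kidney development, held 33.6, 34.6 and 32.3 CPM in controls and 23.8, 26.0 and 22.2 at day 7. Day 14 held 42.6, 24.9 and 23.2 CPM, and day 28 held 35.5, 37.0 and 43.1. Day 7 lay below and day 28 above all controls, and the day-14 libraries lay on either side. Neither passed the test against control, with −0.48 ± 0.20 (adjusted p = 0.0937) at day 7 and 0.20 ± 0.19 (adjusted p = 0.515) at day 28. In the model of the 2 groups alone the value at day 7 was called (adjusted p = 0.0105). Day 28 was higher than day 7 by 0.68 ± 0.20 (adjusted p = 0.0318). That call was lost without any 1 day-7 library or day-28 replicate 2 or 3 (0.00923 to 0.106). Day 28 was called higher than day 14 only without day-14 replicate 1 (0.67, adjusted p = 0.0261).

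Bmp2 (chromosome 3, 126335963 to 126346771, plus strand), best known for inducing bone, held 45.3, 45.8 and 42.6 CPM in controls and 36.0, 38.0 and 45.8 at day 7. Day 14 held 63.1, 65.9 and 25.8 CPM, and day 28 held 32.6, 31.6 and 25.7. The day-14 libraries spanned nearly the whole range of the other groups and beyond its top, and all day-28 libraries lay below all controls. The difference at day 28 was −0.57 ± 0.27 with an adjusted p of 0.171, which became 0.0122 in the model of the 2 groups alone. Without day-14 replicate 3, Bmp2 was called higher at day 14 than at day 7 (0.70, adjusted p = 0.00757) and lower at day 28 than at day 14 (−1.12, adjusted p = 0.00267). The deposited table of transcripts lists 2 models of Bmp2, the shorter spanning 1256 of 4599 bases. It held 37.7% ± 2.15 of the reads of the gene in controls, 39.4% ± 3.81 at day 7, then 36.1% ± 1.55 at day 14 and 33.4% ± 4.32 at day 28. These shares overlapped between all groups and were not tested.

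**Figure D2:**
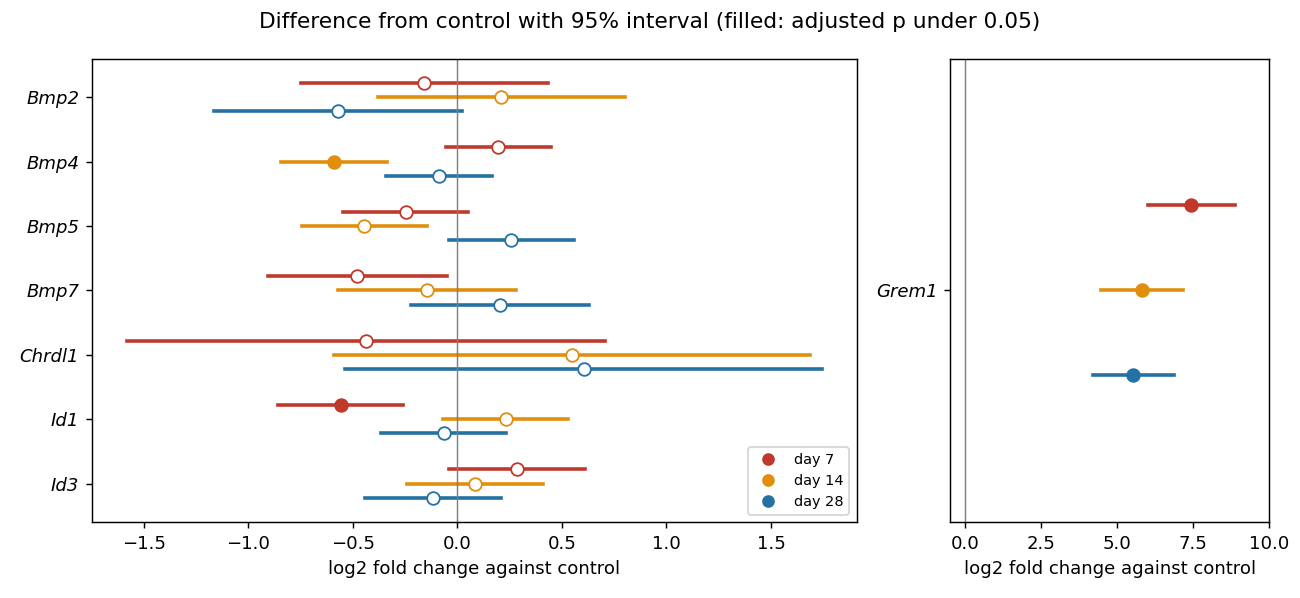
Log2 fold change of each gene against control at 3 days (points) with its 95% interval (lines), filled where the adjusted p was under 0.05. Grem1 has an axis of its own and lies between 5.54 and 7.44, and of the other 7 genes only Bmp4 at day 14 and Id1 at day 7 are filled.

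The level of Grem1 beside its ligands was followed as the ratio of Grem1 TPM to the summed TPM of Bmp2, Bmp4, Bmp5 and Bmp7 in the same library. The ratio was 0.00803, 0.0104 and 0.0129 in controls, so that ligand transcripts far outnumbered those of Grem1. It was 1.50, 2.74 and 1.82 at day 7, above 1 in every library. It was 0.200, 1.02 and 0.922 at day 14 and 0.432, 0.752 and 0.285 at day 28. The ranges of days 14 and 28 overlapped each other and neither overlapped control or day 7. The summed ligand level moved much less, at 79.1 ± 2.32 TPM in controls, 64.6 ± 4.01 at day 7, then 71.7 ± 17.3 at day 14 and 78.9 ± 3.15 at day 28. Unlike the CPM, TPM were not scaled between libraries, so small differences between groups in the ligand sum are not to be read closely. Bmp4 made up 27.0% ± 1.52 of that sum in controls and 34.5% ± 0.577 at day 7, and Bmp7 made up 35.3% ± 0.533 and 28.4% ± 2.32, with no overlap in either case. With Chrdl1 added to Grem1 the ratio was 0.220 ± 0.0790 in controls and 2.19 ± 0.639, 1.09 ± 0.641 and 0.812 ± 0.437 at days 7, 14 and 28. These ratios and shares rest on whole gene lengths, a limit given above for Bmp4. They are descriptions of transcripts, with no test, and say nothing of protein.

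**Figure D3:**
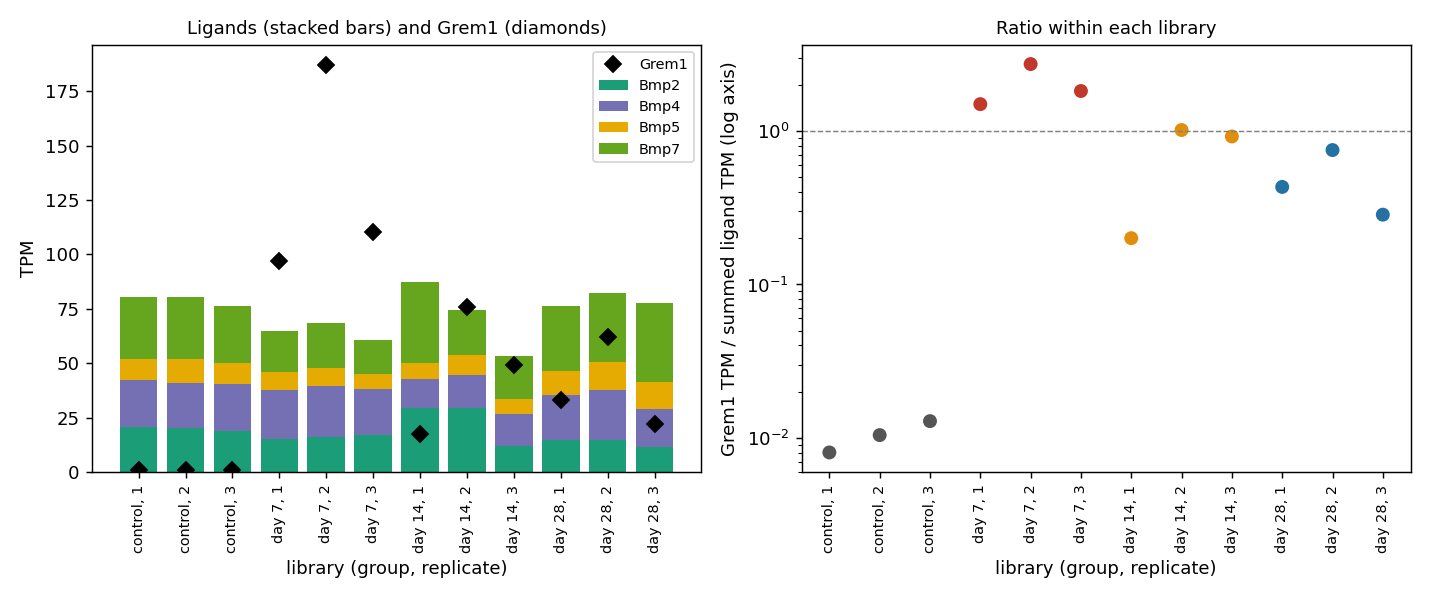
Left, TPM of the 4 ligands stacked in each of the 12 libraries (bars) with Grem1 TPM in the same library (diamonds). Right, the ratio of Grem1 to the summed ligands on a log axis, with a dashed line at 1: all 3 day-7 libraries and 1 day-14 library lie above the line, and controls lie near 0.01.

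Id1 (chromosome 3, 148214623 to 148216715, plus strand), an inhibitor of differentiation and a direct SMAD target, fell at day 7. It held 166, 145 and 164 CPM in controls, 105, 98.1 and 119 at day 7, 190.2, 199 and 169 at day 14 and 123, 151 and 181 at day 28. Day 7 lay below every other group, day 14 lay above all controls, and day 28 overlapped controls. The fall at day 7 was −0.56 ± 0.14 against control (adjusted p = 0.0119). Against day 7, Id1 was higher at day 14 by 0.79 ± 0.14 (adjusted p = 0.00298) and at day 28 by 0.49 ± 0.14 (adjusted p = 0.0279). The call at day 7 was lost only when day-7 replicate 2 was left out, at an adjusted p of 0.0525 (lowest over the 12 alternatives 0.00183), and that at day 14 against day 7 held in all 12. The call at day 28 against day 7 was lost in the model of the 2 groups alone and without day-7 replicate 1 or 2 or day-28 replicate 2 or 3 (0.00898 to 0.108). Urothelial markers (Upk1a, Upk1b, Upk2, Upk3a, Krt5 and Krt20) summed to 4869 to 5598 CPM in controls, 3078 to 3739 at day 7, 4080 to 4614 at day 14 and 3161 to 4005 at day 28, with 4 of 6 called lower at day 7, and none at 0. The sum was below all controls at day 28 too, where its markers did not move alike. Krt5 had means of 133 CPM in controls and 347 at day 28, and Krt20 had 67.4 and 1.14. The part of these markers in the level of Id1 was not tested at any day. Id1 has 2 models in the transcript table, and the shorter, 48.3% of the length, held 91.0% ± 0.993 of its reads in controls and 90.6% ± 0.989 at day 7.

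Id3 (chromosome 5, 154489603 to 154491172, plus strand), of the same family, was called in none of the 6 comparisons. Its levels were 46.4, 29.0 and 37.9 CPM in controls, 42.2, 45.8 and 50.3 at day 7, 39.4, 43.6 and 37.1 at day 14 and 36.2, 35.2 and 33.2 at day 28. Each day overlapped the controls, which were themselves widely spread. The differences from control were 0.29 ± 0.15, 0.08 ± 0.15 and −0.12 ± 0.15, with adjusted p of 0.178, 0.833 and 0.637. Without control replicate 1 the value at day 7 was called (adjusted p = 0.0435). Day 28 against day 7 was −0.40 ± 0.15 (adjusted p = 0.0815), called in the model of the 2 groups alone (0.0482). The remaining Id genes, read from the list of other targets, were lower at day 7. Id2 held 70.4, 82.6 and 79.3 CPM in controls and 28.8, 21.1 and 21.6 at day 7 (−1.70 ± 0.17, adjusted p = 0.000128). Id4 held 38.4, 36.3 and 40.9 CPM in controls and 25.4, 24.0 and 21.4 at day 7 (−0.71 ± 0.18, adjusted p = 0.0148). Neither was called at day 14 or 28. Of the 4 Id genes, 3 were called lower at day 7, where 10.5% of all genes were called lower. The call of Id4 was lost without replicate 3 of either group, and that of Id1 without day-7 replicate 2. The difference between Id1 and Id3 was not itself tested.

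The counts of the 8 genes were read against all 17687 genes tested. At day 7, 2 of 8 were called, 1 higher and 1 lower, beside 26.1% of all genes (15.6% higher and 10.5% lower), which is close to the background. At day 14, 2 of 8 were called, 1 in each direction, beside 2.45% of all genes (1.45% higher and 0.995% lower). At day 28, 1 of 8 was called, higher, beside 18.5% (11% higher and 7.51% lower). Groups did not overlap with control for 5 of 8 genes at day 7, 4 at day 14 and 3 at day 28, where the shares of all genes were 45.3%, 24.7% and 40.5%. Between days 7 and 14, 1 of 8 was higher and 2 lower at day 14, beside 19.5% of all genes called (7.59% higher and 12% lower). Between days 14 and 28, 2 of 8 were higher at day 28 and 0 lower, beside 4.34% (3.13% and 1.22%). Between days 7 and 28, 3 of 8 were higher and 1 lower at day 28, beside 18.7% (7.89% and 10.8%). The median log2 fold change of the 8 was −0.20, 0.15 and 0.07 at days 7, 14 and 28 against control, and that of all genes tested was −0.01, 0.00 and 0.00. The 3 comparisons with control share their control libraries, and so do the pairs of days that share a day.

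The rest of the pathway was read from 6 lists holding 60 genes, of which 51 were tested. These lists were chosen with earlier results of these data known. At day 7, 28 of the 51 were called (54.9%), 19 higher and 9 lower, with a median log2 fold change of 0.24, beside the 26.1% of all genes called. The count was 18 when control replicate 2 was left out and 17 when day-7 replicate 3 was. At day 14, 0 of 51 were called by edgeR, with 2 called by DESeq2 and 12 at an unadjusted p under 0.05, where 17.7% of all genes tested had such a p. At day 28, 10 were called (19.6%), 6 higher and 4 lower, which is close to the background of 18.5%, and this fell to 2 without control replicate 1 or 3, to 3 without control replicate 2 and to 6 without day-28 replicate 2. Against day 7, 14 of 51 were lower and 5 higher at day 14, beside 12% and 7.59% of all genes, and 14 were lower and 3 higher at day 28, beside 10.8% and 7.89%.

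Of 13 other antagonists and modulators tested, 6 were called at day 7, all higher, beside 15.6% of all genes called higher. Bmper, a secreted binder of BMPs in vessels, held 3.17, 3.68 and 4.79 CPM in controls and 32.2, 59.1 and 51.0 at day 7 (3.61 ± 0.38, adjusted p = 0.000152). Chrdl2, the closest relative of Chrdl1, held 1.60, 2.70 and 3.32 CPM in controls and 26.7, 49.1 and 54.2 at day 7 (4.09 ± 0.55, adjusted p = 0.000476). Both thus lay far above controls at day 7, unlike Chrdl1 itself. Chrdl2 remained higher at day 28 by 1.77 ± 0.52 (adjusted p = 0.0347), a call lost without any 1 control library or without day-28 replicate 1 or 2. The follistatin-type genes Fstl3 and Fstl1 rose by 2.06 ± 0.30 and 1.33 ± 0.26 at day 7, and Kcp, a chordin-type protein, by 2.11 ± 0.42 from 0.822 to 3.57 CPM. The sixth was Fst. At day 28, 1 of 13 was higher and 2, Chrd and Crim1, were lower, beside 11% and 7.51% of all genes.

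Of the other ligands, 7 of 11 were tested. Bmp3, a ligand that opposes the osteogenic BMPs, held 18.6, 24.2 and 18.0 CPM in controls and 55.8, 52.8 and 52.1 at day 7 (1.40 ± 0.16, adjusted p = 0.000214), and stayed higher at day 28 (0.63 ± 0.16, adjusted p = 0.0168). The call at day 28 was lost without control replicate 1 or 3. Gdf6 rose by 2.56 ± 0.83 at day 7 from 0.657 to 3.90 CPM, and Bmp15, known from the oocyte, fell by 1.06 ± 0.35 from 4.73 to 2.27 CPM. The call of Gdf6 was lost with a replicate block and after removal of control replicate 2 or 3 or of replicate 2 or 3 of day 7, and that of Bmp15 was lost with the block and without any 1 library. Of 6 proteases that cut BMP precursors or chordin-type antagonists, 5 were called at day 7, all higher, beside 15.6% of all genes. Tll1, a tolloid protease that cleaves chordin, rose by 1.93 ± 0.30, and Pcsk6 and Pcsk5, proprotein convertases, by 1.71 ± 0.33 and 1.11 ± 0.29. Bmp1, a tolloid protease despite its name, rose by 0.72 ± 0.15 and Furin by 0.54 ± 0.14. Furin was still higher at day 28 (0.86 ± 0.14). The day-7 call of Pcsk5 was lost without control replicate 1 or 2, and that of Furin without replicate 3 of either group.

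Of 11 receptors and co-receptors tested, 4 rose and 3 fell at day 7, beside 15.6% and 10.5% of all genes. Endoglin (Eng), a co-receptor of endothelium, held 71.5, 99.3 and 91.9 CPM in controls and 226, 268 and 303 at day 7 (1.60 ± 0.22, adjusted p = 0.000574), beside the rise of all 6 endothelial markers given above. The endothelial receptor Acvrl1 rose by 0.54 ± 0.14 and the type I receptor Acvr1 by 0.50 ± 0.12. Acvrl1 lost its call without control replicate 1 or 3 and Acvr1 when replicate 2 of the controls or replicate 3 of day 7 was removed. Rgmb, a co-receptor of the repulsive guidance family, fell from 143 to 56.6 CPM (−1.34 ± 0.24, adjusted p = 0.00237). Bmpr1b was called higher by 2.54 ± 0.50, but it overlaps Unc5c on the opposite strand, which held 4962 counts against 926, and is uncertain because the use of strand in counting is not given. The other 2 genes that fell were Bmpr1a and Acvr2a. Eng remained higher at day 28 (0.70 ± 0.22), a call lost without any 1 control library or day-28 replicate 1 or 2.

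Among 6 signal transducers, Smad1, which carries the BMP signal to the nucleus, held 42.3, 36.4 and 42.8 CPM in controls and 64.5, 61.7 and 59.0 at day 7 (0.61 ± 0.11, adjusted p = 0.00291). It was higher at day 28 too, at 54.1, 68.2 and 71.7 CPM (0.67 ± 0.11, adjusted p = 0.00241), and both calls held in all 12 alternatives. Smad9 was near the floor, with 23 counts over the 3 control libraries and 2 over those of day 7. That is a ratio of 0.0799 with an exact 95% interval of 0.00914 to 0.324 for counting error only. It was called lower (adjusted p = 0.0290), and removing control replicate 2 or 3, or any 1 day-7 library, ended the call. Of 8 other targets, 1 rose and 4 fell at day 7, beside 15.6% and 10.5% of all genes. Msx1 rose by 1.85 ± 0.44 from 1.31 to 4.72 CPM. At day 28 Msx1 was called higher (1.45 ± 0.44) and Atoh8 lower (−0.62 ± 0.20), calls lost in 5 of 11 and 8 of 12 alternatives, among them any 1 control library and day-28 replicate 1 or 2 left out. Beside Id2 and Id4, Atoh8 fell by 0.71 ± 0.20 and the inhibitory Smad6 by 0.61 ± 0.18. Both of these lost their calls when replicate 1 or 2 of the controls or replicate 3 of day 7 was removed, Atoh8 also when replicate 2 of day 7 was, and Id4 when replicate 3 of either group was.

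**Figure D4:**
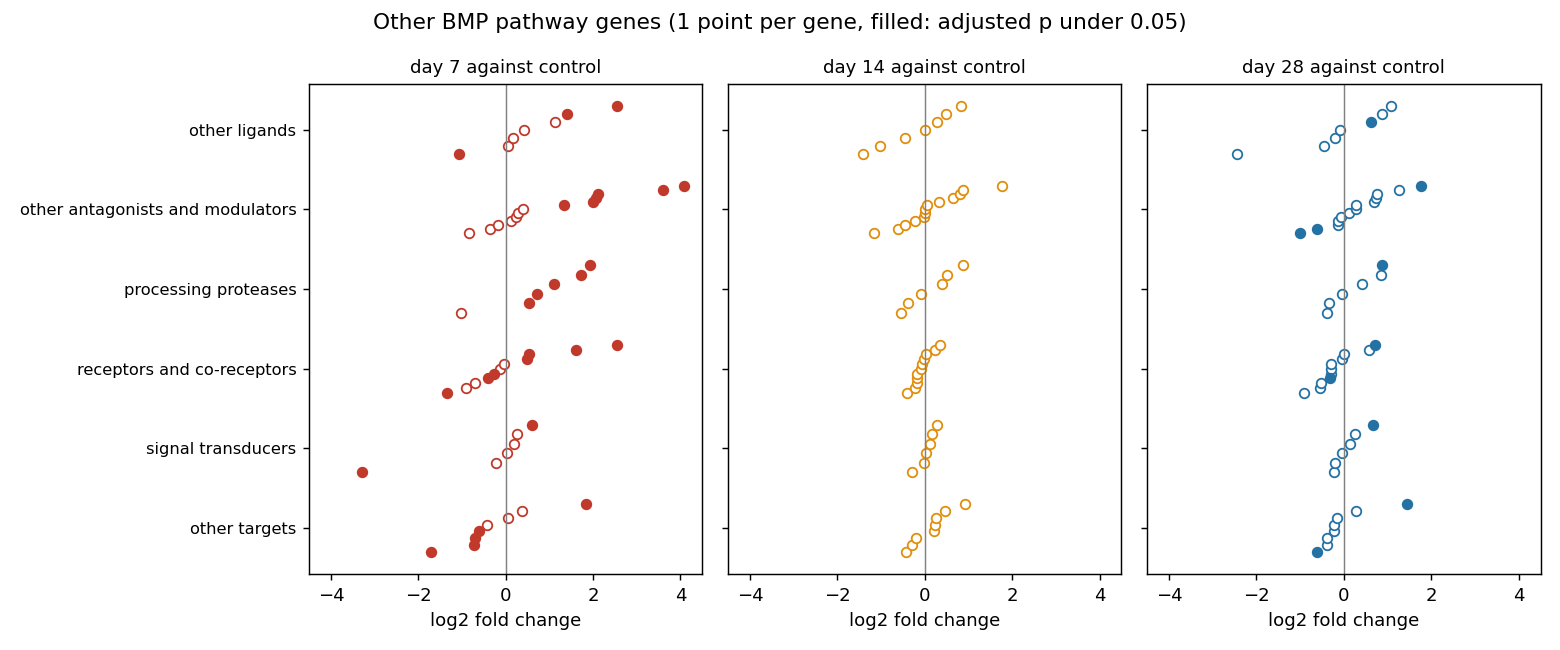
Log2 fold change against control of 51 other BMP pathway genes in 6 lists (1 point per gene, filled where the adjusted p was under 0.05) at days 7, 14 and 28. At day 7, 28 points are filled, 6 of them antagonists and modulators to the right of 0, and at day 14 none is filled.

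Genes with the most similar profile were sought by the Pearson correlation of log2 CPM over the 12 libraries among 11087 genes with a mean of at least 5 CPM. Genes named only by an identifier, such as those beginning with LOC, were left out of the search. The correlations describe libraries that share groups and depth. For Grem1 the nearest were Serpina3n, an acute-phase protease inhibitor (r = 0.988), Ehd3 (0.968), Tpsab1, a mast cell tryptase (0.964), and Adamts8, a secreted metalloprotease (0.959). Mean levels of Serpina3n in controls and at days 7, 14 and 28 were 2.31, 97.8, 43.2 and 36.7 CPM. Tryptase genes have near-identical copies that reads of 50 bases may not tell apart. For Bmp7 the nearest were Exosc5 (r = 0.925), Fam102a (0.907), Slc25a35 (0.901) and Spdya (0.891). For Id1 they were Tmco4 (0.941), Rassf6 (0.935), the transcription factor Tbx3 (0.927) and Sorl1 (0.922). Within the 8 genes the strongest correlation was that of Bmp4 with Id1, at −0.77 over 12 libraries, and Grem1 had −0.41 with Id1 and 0.03 with Bmp4.

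Libraries held 26.3 to 30.7 M counts. Markers of urothelium and of smooth muscle were read in every library, the latter with sums of 7559 to 31279 CPM. Day-7 replicate 3 stood apart in haemoglobin transcripts, at 2.89% of counts against at most 0.370% in the other 11 libraries. Its Grem1 level lay between those of the other day-7 libraries, and without it Grem1, and Id1 too, kept their calls against control at day 7. Markers of neutrophils summed to 0.643 to 0.984 CPM in controls, 14.0 to 28.3 at day 7 and 10.9 to 42.3 at day 28. At day 14 they summed to 5.39, 5.40 and 139 CPM, the last in replicate 3. Schwann cell markers were lower at day 7, with 3 of 4 called.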

How the data were processed

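Libraries of RNA depleted of its ribosomal fraction were read from a single end, 50 bases long, per the labels' protocols. The submitters' processing notes list HTSeq 0.11.2, HISAT2 2.1.0, bcl2fastq and the build rn6 without a role for each. Whether counting used strand was not given in the sources used here. The authors deposited raw read counts per gene and per mRNA transcript, with no normalization. They also deposited TPM, which equal those counts over the deposited gene length in bases, scaled to the same sum in each library, per the file headers. Reads shared by isoforms are counted for each of them in the transcript table. Tables of non-coding RNA were not used.

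Groups came from the sample titles. Gene counts went into edgeR 4.0.16 (R 4.3.3): filterByExpr (minimum count 10, minimum total 15), TMM scaling and 1 quasi-likelihood model over all 12 libraries, with 6 comparisons and Benjamini-Hochberg adjustment over the 17687 genes tested. The threshold for a call was an adjusted p of 0.05. The SE is the absolute log2 fold change over the square root of the F statistic, and correlations used log2 CPM with a prior count of 2. The alternatives were DESeq2 1.42.0, RLE size factors, no filter, a mean of at least 5 CPM, a replicate block, only the 2 groups compared and each library left out. Each library was counted as 1 sample. Pairs of replicates differed by more than counting noise, which does not show that they came from separate animals. The fit was tested on simulated data. Plots were drawn with matplotlib 3.10.9 in Python 3.11.15.

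The 8 genes, the gene lists and the rules were chosen with earlier results of these data known. From each list the text gives values for up to 5 called genes with the smallest p over the comparisons with control. Fst, Chrd, Crim1, Bmpr1a and Acvr2a lie outside that rule and are named to complete counts, after their values were seen. Promoters are from RefSeq, and 1 listed gene, Hjv, was found under its older symbol Hfe2.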

Additional observations from a re-analysis of the deposited data

Results flagged for a closer look

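Of the 8 BMP genes, 5 differed between days after injury by a test of the difference itself, as an edgeR contrast between 2 days, with adjusted p as given in the report. Of all genes tested, 19.5% were called between days 7 and 14, 4.34% between days 14 and 28 and 18.7% between days 7 and 28. The share of all genes called in any of these comparisons was not computed, so the count of 5 is not a result about the 8 genes as a set. From day 7 to day 14, Grem1 changed by −1.62, Bmp4 by −0.79 and Id1 by 0.79 (log2). From day 14 to day 28, Bmp4 changed by 0.50 and Bmp5 by 0.70. From day 7 to day 28, Grem1 changed by −1.91, Bmp5 by 0.51, Bmp7 by 0.68 and Id1 by 0.49. Only the day 14 against day 7 differences of Bmp4 and Id1 held in all 12 alternatives.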

How the results depend on the processing

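All values here are counts of calls or log2 fold changes under another processing. Grem1 against control kept its direction and call at all 3 days in every alternative. For all genes at day 14 against control the count was 433, and it was 251 at a mean of at least 5 CPM and 1307 by DESeq2. In a model of only the 2 groups compared, genes called numbered 2195 at day 14 against day 7 and 42 at day 28 against day 14, where DESeq2 called 1601. In that model the 8 BMP genes gave 2 calls at day 28 against control and 0 at day 28 against day 14. Of the other pathway genes DESeq2 called 2 at day 14 against control. At day 28 against day 14 their count of 2 became 4 with no filter, 1 at a mean of at least 5 CPM, 1 with the replicate block, 0 with the 2 groups alone and 5 by DESeq2. Leaving out 1 library of the 2 groups compared at a time gave ranges as follows. Genes called ranged from 3061 to 4888 at day 7, 16 to 504 at day 14 and 1971 to 3283 at day 28 against control, and from 1959 to 3431 (day 14 against day 7), 261 to 1120 (day 28 against day 14) and 1954 to 3275 (day 28 against day 7). The 8 BMP genes gave 1 to 3 calls at day 7, 1 to 3 at day 14, 0 to 2 at day 28 against day 14 and 0 to 3 at day 28 against day 7, the 0 falling without day-28 replicate 2 and day-7 replicate 2. Other pathway genes gave 17 to 29 at day 7, 0 to 1 at day 14, 2 to 10 at day 28 and 0 to 5 at day 28 against day 14. Each such fit has fewer samples, and the cause of any 1 loss was not tested. Differences that were not called changed sign for Bmp2 at day 14 (−0.0042 to 0.54), Bmp4 at day 28 (−0.18 to 0.0044), Bmp7 at day 14 (−0.47 to 0.021), Id1 at day 28 (−0.21 to 0.056), Id3 at day 14 (−0.073 to 0.26) and at day 28 (−0.28 to 0.058), all against control, and at day 28 against day 14 for Chrdl1 (−0.46 to 0.49) and Grem1 (−0.77 to 0.24). The ratio of Grem1 to ligands moved within its spread.

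Replicate numbers are shared by the groups, but same-numbered libraries did not deviate together (correlations of 0.017 to 0.15, −0.015 to 0.13 and −0.022 to 0.15 for numbers 1, 2 and 3). With the replicate block 4788, 460 and 3440 genes were called at days 7, 14 and 28 against control, and the 8 BMP genes gave 2, 2 and 1 calls as before. With 3 libraries a group, a difference that was not called is not shown to be absent. Where the report gives an interval, it shows the sizes of difference that remain possible.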
